A study of Mus musculus with 4 samples.

Results

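The genes described here encode the proteins of the cytosolic ribosome. They were taken by symbol, as the probes outside the array controls whose whole gene name is Rpl, Rps or Rplp and a number, with at most 1 letter and further digits after it, which leaves out Rpl36al and the S6 kinase genes. This gave 80 genes of 27656 gene symbols on the arrays, 49 of the large (60S) subunit and 31 of the small (40S) subunit, read by 133 probes. The cells were mouse embryonic fibroblasts (MEFs) of C57BL/6J mice, whose genotype is labelled Lats2-/- (KO) or Lats2+/+ (WT); Lats2 is a kinase of the Hippo pathway. All cultures grew in DMEM with 10% inactivated fetal bovine serum, penicillin and streptomycin. Within a genotype, a low density culture, taken subconfluent at 48 hours, was set on the same array against a high density culture kept for 3 to 5 days, so that density and time in culture cannot be told apart. The 4 Agilent 2-colour arrays made up 1 dye swap per genotype. On array 1 of each genotype the high density RNA carried Cy5, and on array 2 it carried Cy3. A dye swap counts as 1 replicate, so no difference below has a biological replicate or a p-value, and the labels do not give the number of animals or cultures behind an RNA.

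Ribosomal proteins are made in near equal numbers, assemble on ribosomal RNA in the nucleolus, and are among the most abundant messenger RNAs of a growing cell. Their messengers begin with a run of pyrimidines, the 5′ terminal oligopyrimidine (TOP) tract, through which mTORC1 and the binding protein Larp1 set their translation and stability. Several members have a second role or a paralogue with a narrower range of expression, and most have many processed pseudogenes, so that a probe may also read a near-identical copy.

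The TOP tract was looked for in the mouse promoters of RefSeq (assembly GRCm38.p6), as an unbroken run of at least 8 C or T bases on the coding strand that came within 5 bases of the annotated start. Such a run was present in 24 of 72 promoters of the members (33.3%), against 3081 of 32851 of all promoters (9.38%) and 7 of 72 promoters of mitochondrial ribosomal protein genes (9.72%). By gene, 24 of the 60 members with a promoter entry (40.0%) had one. All 80 members were found among RefSeq genes, but 20 had no promoter entry. The windows of 8 of the members with a run are shown as examples, picked among those whose values are given below. A run near the start is not by itself a TOP tract, which must begin the messenger. At Rps27l the run ends before the annotated start, so it is not in the messenger as annotated. Rpl13a, Rpl38 and Rplp2, also described below, had a run too. Each runs 5′ to 3′ over 15 bases on either side of the start, with the pyrimidine run in capitals.

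Rps27 (chr3:90213634-90213663, minus strand): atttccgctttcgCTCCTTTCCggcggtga
Rps6 (chr4:86857353-86857382, minus strand): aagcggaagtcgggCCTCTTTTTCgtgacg
Rpl14 (chr9:120571502-120571531, plus strand): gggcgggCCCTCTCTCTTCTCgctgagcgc
Rpl15 (chr14:18270972-18271001, minus strand): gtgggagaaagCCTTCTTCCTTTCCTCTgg
Rpl18 (chr7:45718056-45718085, plus strand): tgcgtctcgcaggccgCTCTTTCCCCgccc
Rpl35a (chr16:33056467-33056496, plus strand): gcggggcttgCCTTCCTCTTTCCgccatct
Rpl22l1 (chr3:28805493-28805522, plus strand): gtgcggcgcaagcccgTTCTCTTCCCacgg
Rps27l (chr9:66946071-66946100, plus strand): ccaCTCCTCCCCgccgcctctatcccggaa

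Many members described below, among them Rpl5, Rpl11 and Rps19, had no run of that length. Of these Rpl31 and Rpl22, which have the largest differences between the genotypes, are shown with their shorter runs in capitals.

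Rpl31 (chr1:39367836-39367865, plus strand): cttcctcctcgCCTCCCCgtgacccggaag
Rpl22 (chr4:152324421-152324450, plus strand): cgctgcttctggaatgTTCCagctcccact

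The arrays were checked before the members were compared. Between 52.8% and 67.7% of the features outside the controls were well above background in a channel, and none was saturated. All 8 fibroblast markers (among them Col1a1, Vim and Pdgfra) exceeded background clearly in all 8 channels. The endothelial markers Pecam1, Cdh5, Tek and Emcn and the macrophage markers Emr1 and Ptprc were not well above background in any, while the macrophage marker Cd68 was in all 8. The summed background-subtracted signal of 5 macrophage markers was 115 to 170 in the WT channels at low density, 185 to 589 in the KO channels at low density, 128 to 136 in WT at high density and 417 to 1031 in KO at high density. The same sum of 3 neural markers, of which Nes and Tubb3 were well above background in all 8 channels and Gfap in none, was 6411 to 17546 in WT and 755 to 1560 in KO at low density, and 1251 to 3363 in WT and 274 to 1102 in KO at high density. For 5 muscle markers, of which Acta1 was well above background in all 8 channels and Myog, Ckm and Myh3 in none, it was 5306 to 13874 in WT and 6198 to 16725 in KO at low density, and 988 to 2739 in WT and 2023 to 6966 in KO at high density. The sums were not scaled between arrays or dyes, so they also carry the brightness of each channel. For the 8 fibroblast markers the sum was 233697 to 770451 in WT and 401430 to 985347 in KO at low density. At high density it was 214630 to 766504 in WT and 273861 to 1.13077e+06 in KO. The part of the macrophage, neural and muscle sums, which moved with density or genotype, in the differences below was not tested. Of 4 Lats2 probes on chromosome 14 (build mm8, minus strand), the 3 between 56644080 and 56645305 were brighter in KO than in WT, with mean log2 ratios of 0.90 to 1.49, and the 1 at 56676512 to 56676571, upstream of them in the gene, was dimmer (-0.64 at low and -1.27 at high density). Which of them lie in the deleted part is not given in the sources used here, so the probes do not check the label. The study checked the knockout at the protein level by western blot. The WT arrays shared 1 slide and 1 scan day and the KO arrays lay on 2 slides scanned on 2 days, so slide and scan day cannot be told apart from genotype.

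The members were bright. Of the 80 genes, 79 had a brightest probe that was well above background in all 8 channels, and these probes stood at mean log2 signals of 10.67 to 16.96. The median over the brightest probes was 15.78, against 6.67 over all genes. With a mean log2 signal of at least 14 there were 576 genes on the arrays, of which 69 were members. The exception was Rpl3l, the paralogue of Rpl3 that is known from skeletal muscle and heart, whose single probe was not well above background in any channel (log2 signals from 5.98 to 6.17) and which was not compared. The paralogues Rpl10l and Rpl39l have no probe under those symbols. Values below are those of the brightest probe of each gene, as log2 ratios, and a gene is called higher or lower when its mean ratio was at least 1.4-fold (0.49 on the log2 scale) and its sign was shared by both arrays, or by both dyes.

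In the cells labelled WT, most ribosomal protein genes had a ratio of high over low density above 0, by a small amount, and a minority passed the rule for a call. The log2 ratio of high over low density had a median of 0.38 over 79 genes, with quartiles of 0.22 and 0.52 and a range from -0.20 to 0.85, while the median of all genes was 0.06. It was above 0 on both arrays for 69 members (87.3%), below 0 on both for 1 and of mixed sign for 9, whereas 48.9% of all 14874 genes tested were above 0 on both and 39.9% below. By the 1.4-fold rule 23 members (29.1%) were called higher and 0 lower. Of all genes 23.5% were called higher and 17.6% lower, so the count of calls was near the background while the share above 0 was not. No member reached 2-fold, against 15.5% of all genes. The count called higher was 45 without array 2, 9 without array 1 and 6 from the scanner software's processed signals, from which the median was 0.23. With median centring in place of loess it was 0, as the arrays then had opposite signs, with a median of 0.10. It was 41 with the loess curve fitted without the probes of the members, other ribosomal proteins, translation factors and other TOP genes. These probes, members included, are called the translation probes below. Shares of all genes, here and below, are given without such changes of processing.

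Rps27, a zinc finger protein of the small subunit, had the largest density ratio in WT. Its log2 signals on the WT arrays were 15.51 and 15.82 at low density and 16.52 and 16.52 at high density, and its log2 ratios were 1.01 and 0.70, with a mean of 0.85 ± 0.22 (SD of the 2 arrays). Both high density signals exceeded both low density ones. Rps20, whose product sits in the head of the small subunit, gave ratios of 1.02 and 0.59. Rpl17 gave 1.23 and 0.26, with a mean of 0.74 that rested more on array 1 than on array 2. Rpl23a, at the exit of the nascent peptide tunnel, gave 0.78 and 0.57, and Rpl39, which lines that tunnel, gave 0.80 and 0.53. These 5 members stood highest among those of like sign on both arrays.

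At the low end only Rpl14 was below 0 on both WT arrays, at -0.10 and -0.31. Rpl18 (0.07 and 0.06), Rpl7l1 (0.11 and 0.01) and Rpl15 (0.15 and 0.05) stayed near 0. Members with functions of their own lay between these ends. Rps6, the substrate of S6 kinase, had ratios of 0.57 and 0.21. Rpl5 and Rpl11, which form a particle with 5S RNA and bind Mdm2 when free, had 0.64 and 0.08, and 0.54 and 0.10. The stalk genes Rplp0, Rplp1 and Rplp2, whose products recruit elongation factors, had means of 0.53, 0.39 and 0.28, and Rplp0 alone of these passed 1.4-fold. Rpl13a, known from the interferon-gamma response, had 0.71 and 0.12.

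In the cells labelled KO no member was called higher at high density, and more members had a ratio below 0 than above. The median log2 ratio was -0.14, with quartiles of -0.28 and -0.02, against 0.06 over all genes, and with median centring it was -0.84. On both arrays 13 members were above 0 and 37 below, and for 29 the sign differed between the arrays. Of all genes 46.5% were above 0 on both arrays and 37.7% below. By the 1.4-fold rule 0 members were called higher, where 21.5% of all genes were, and 8 (10.1%) were called lower, where 15.2% of all genes were. None reached 2-fold, against 11% of all genes. Without array 1, 24 were past 1.4-fold, all of them lower. Without array 2 there were 6, of which 3 were lower and 3 higher, so the calls had no single direction on array 1 alone.

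The 8 genes called lower were Rps27l (-0.46 and -1.42), Rpl14 (-0.65 and -0.94), Rpl31 (-0.72 and -0.80), Rpl18 (-0.58 and -0.85), Rpl22 (-0.27 and -0.97), Rpl29 (mean -0.58), Rpl37 (-0.28 and -0.79) and Rpl7l1 (-0.44 and -0.58). Of these 8, 7 belong to the large subunit, which holds 48 of the 79 members compared. Called lower were 14.6% of the large and 3.23% of the small subunit genes, against 15.2% of all genes. The share of the large subunit was thus near that of all genes. The KO median was -0.12 for the large and -0.17 for the small subunit. At the upper end were Rps20, at 0.70 and 0.17, and Rplp1, at 0.53 and 0.19. They were followed by Rps29 with 0.47 and 0.20, Rpl7 with 0.31 and 0.17, and Rps21 with 0.05 and 0.37. None of these 5 reached a mean of 1.4-fold.

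**Figure D1:**
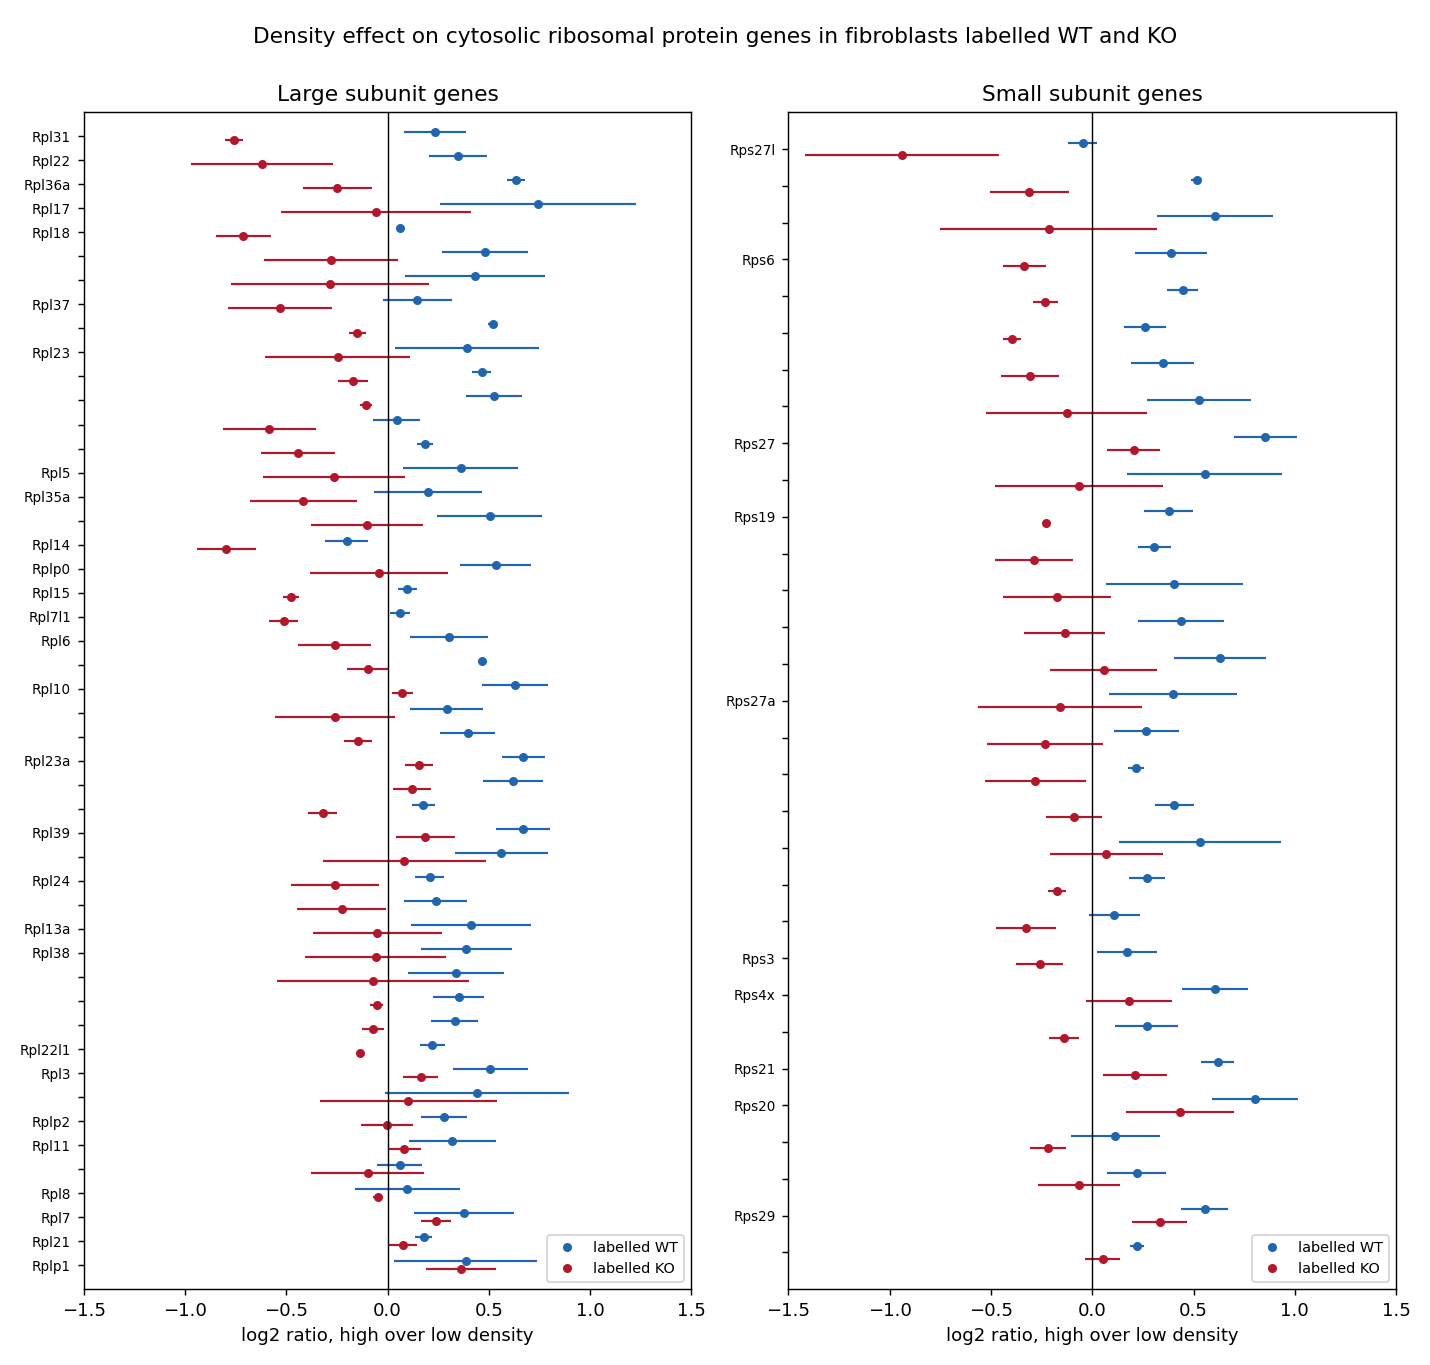
Log2 ratio of high over low density for the 79 ribosomal protein genes compared, large subunit left and small subunit right, in fibroblasts labelled WT (blue) and KO (red). Points are means of the 2 arrays of a genotype, lines join the single arrays, and genes are ordered by the difference KO minus WT, most negative at the top, with symbols at some of them; every red point lies left of its blue point.

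The arrays of a dye swap did not give the same level for the members. The median over members of array 1 minus array 2 was 0.29 in WT and 0.30 in KO, while over all genes it was 0.02 in both. The member median in WT was 0.51 on array 1 and 0.19 on array 2, and in KO it was 0.01 and -0.35. With high density RNA in Cy5 both genotypes therefore read higher than with Cy3, and the KO median changed from near 0 to below 0. The shift was alike in both genotypes and so largely left their difference, for which the medians were -0.52 on array 1 and -0.56 on array 2. The part of the dye in either density effect was not tested beyond averaging the swap.

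The density effect differed between the genotypes in 1 direction for nearly all members. The median of this log2 difference, KO minus WT, was -0.56 over 79 genes, with quartiles of -0.63 and -0.42, against 0.02 over all genes. It was below 0 on both arrays for 75 members (94.9%) and above 0 on both for 0, and the sign differed between arrays for the other 4 (Rplp1, Rpl7, Rpl8 and Rpl27). Of 14172 genes tested, 40.7% were below 0 on both and 43.1% above. At least 1.4-fold in size were 48 members (60.8%), all of them lower, against 15.9% of all genes lower and 15.5% higher. None reached 2-fold, where 9.53% of all genes did. The count was 21 without KO array 2, 28 without WT array 1 and 25 from processed signals, and the median was -0.35, -0.36 and -0.39.

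Rpl31 had the largest difference. Its log2 signals on the WT arrays were 11.83 and 11.60 at low density and 11.91 and 11.99 at high density. On the KO arrays they were 12.17 and 12.10 at low density and 11.46 and 11.30 at high density. The KO signals were the highest of the 4 groups at low density and the lowest at high density, with no overlap, and the difference of the density effects was -0.80 and -1.19 (mean -0.995 ± 0.28). Rpl22 followed at -0.76 and -1.17, then Rps27l at -0.49 and -1.30 and Rpl36a at -0.67 and -1.10. Rps6 had -0.80 and -0.66, and Rps19, a gene mutated in Diamond-Blackfan anaemia, had -0.72 and -0.50. Among members of like sign on both arrays, those near 0 included Rpl21 (-0.13 and -0.08, though -0.81 and -0.56 on its second probe), Rps29 (-0.20 and -0.24), Rpl11 (-0.37 and -0.10, though 0.48 and 0.43 on its second probe) and Rplp2 (-0.27 and -0.30).

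By sign, 29 members were above 0 on both WT arrays and below 0 on both KO arrays, where 7.92% of 14172 genes were. Above 0 on all 4 were 13, against 34.2% of all genes, and 1, Rpl14, was below 0 on all 4, against 26.9%. For 27 the WT ratio was above 0 on both arrays and the KO sign mixed, for 7 the WT sign was mixed and the KO ratio below 0, and for 2 both were mixed. No member was below 0 in WT and above 0 in KO, where 7.3% of all genes were.

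The difference of the density effects equals, on the same spots, the genotype ratio at high density minus that at low density, so the comparison of genotypes shows where it lies. At low density more members had a ratio of KO over WT above 0 than below, and few passed the rule for a call. The median log2 ratio of KO over WT was 0.18, with 0.23 in Cy3 and 0.11 in Cy5, against 0.03 over all genes. Of 79 members 50 were above 0 in both dyes and 15 below, where 46.7% and 44.3% of all genes were. By the 1.4-fold rule 5 (6.33%) were called higher and 1 lower, fewer than among all genes (20.6% higher and 22.1% lower), and 0 reached 2-fold against 15.7% of all genes. Without array 2 of either genotype 13 members were past 1.4-fold, 11 of them higher and 2 lower. With median centring 29 were called higher and 0 lower, with a median of 0.36, and with no offset or with loess fitted without the translation probes 13 were called higher and 1 lower, so that the count of few calls depends on the scaling. Rpl21, at 1.29 in Cy3 and 0.24 in Cy5, had the highest mean but differed more between dyes than any other named member. Rps27l, at 0.67 and 0.77, and Rpl36a, at 0.45 and 0.63, held in both dyes, as did Rpl23 at 0.55 and 0.50 and Rpl6 at 0.61 and 0.41. Rpl8, at -0.51 and -0.75, was the gene called lower. Below 0 in both dyes but short of 1.4-fold were, among others, Rpl37 (mean -0.29), Rps3 (-0.27) and Rpl35a (-0.26).

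At high density most members had a ratio of KO over WT below 0, by a median that was larger in size than at low density, and 24 of the 79 were called lower. The median log2 ratio of KO over WT was -0.35, with -0.25 in Cy5 and -0.42 in Cy3, against 0.02 over all genes. In both dyes 67 members (84.8%) were below 0 and 4 above, where 42% and 44.6% of 15620 genes were. By the 1.4-fold rule 24 (30.4%) were called lower against 20.3% of all genes, and 1, Rpl21, was called higher against 19.1%. Past 2-fold was 1 member, Rpl22, where 14.5% of all genes were past 2-fold in either direction. With median centring 51 members were called lower and the median was -0.57.

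Rpl22, which binds small viral RNAs and is dispensable for growth of many cells, had log2 signals at high density of 15.37 and 15.31 in WT and 14.66 and 13.96 in KO, and ratios of -0.71 and -1.34. Its low density signals lay between 14.88 and 15.10 in both genotypes. Rps6 had high density signals of 14.89 and 14.87 in WT and 14.03 and 13.97 in KO, and ratios of -0.85 and -0.90. For both genes the genotypes did not overlap at high density. Rpl37 had ratios of -0.81 and -1.13, and Rpl35a had -0.86 and -0.90. Rps3 (-0.58 and -0.82) and Rps19 (-0.50 and -0.65) were also called lower. The 4 members above 0 in both dyes were Rpl21 (1.16 and 0.16, with -0.53 and -0.22 on its second probe), Rplp1 (0.18 and 0.34), Rps29 (0.07 and 0.22) and Rps21 (0.07 and 0.05).

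**Figure D2:**
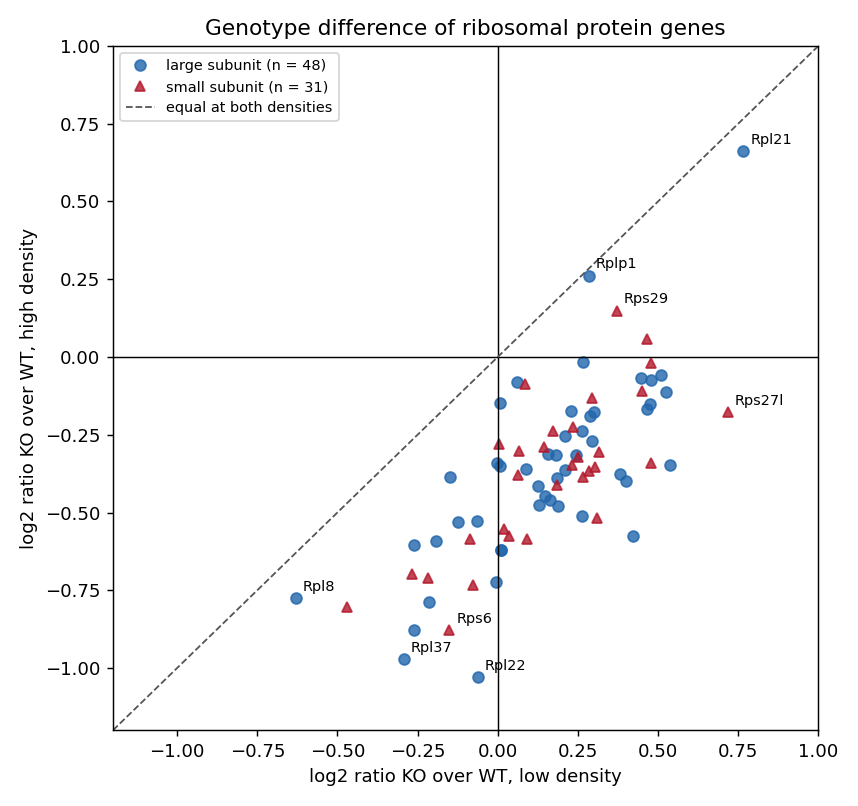
Log2 ratio of KO over WT for 79 ribosomal protein genes at low density (horizontal) and high density (vertical), each the mean of both dyes, for the large subunit (blue circles, n = 48) and the small subunit (red triangles, n = 31); the dashed line marks equal ratios. All points lie below the dashed line, and 39 members are above 0 at low and below 0 at high density in both dyes.

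Between the densities, 39 members were above 0 in both dyes at low density and below 0 in both at high density, where 8.26% of all genes were. At both densities 15 were below 0, against 31.1% of all genes, and 4 were above 0, against 30.8%. None went from below 0 to above 0, where 8.64% of all genes did. The remainder had mixed signs at 1 density or both.

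The medians of the subunits lay close together, and no test was made between them. In WT the median density ratio was 0.36 for the 48 large subunit genes and 0.40 for the 31 small subunit genes, a difference of -0.04, and in KO it was -0.12 and -0.17, a difference of 0.05. The medians of the KO minus WT difference were -0.55 and -0.56. At low density the median of KO over WT was 0.18 in both subunits, and at high density it was -0.36 and -0.35. By count, 12 of 48 large subunit genes and 11 of 31 small subunit genes were called higher in WT, where 23.5% of all genes were, and 29 of 48 large subunit genes and 19 of 31 small subunit genes had a difference of at least 1.4-fold, all lower in KO, where 15.9% of all genes were. All 31 small subunit genes were below 0 on both arrays, and so were 44 of the large subunit.

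Paralogues were set side by side. Rps27 and Rps27l, a gene induced by p53, were apart in both genotypes. Rps27 had density ratios of 1.01 and 0.70 in WT and 0.34 and 0.07 in KO, and Rps27l had 0.02 and -0.12 in WT and -0.46 and -1.42 in KO. Rpl7 had 0.63 and 0.13 in WT and 0.31 and 0.17 in KO, while Rpl7l1 had 0.11 and 0.01 and then -0.44 and -0.58. Rpl22l1, which Rpl22 is known to repress, had 0.29 and 0.16 in WT and -0.15 and -0.12 in KO, the same signs as the brightest probe of Rpl22 with a smaller difference. At high density its ratio of KO over WT was -0.43 and -0.27. Rpl36al, the autosomal copy of the X-linked Rpl36a, is outside the symbol pattern and had -0.12 and -0.26 in WT and -0.59 and -1.10 in KO, where Rpl36a had 0.59 and 0.68 and then -0.08 and -0.42.

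Further members are known for effects on particular messengers or for extra functions. Rpl38, needed for translation of Hox messengers, had 0.61 and 0.16 in WT and 0.29 and -0.41 in KO. Rpl24 had means of 0.21 and -0.26 and Rpl10 of 0.63 and 0.07. The brightest Rpl10 probe is placed on chromosome 13 by the array annotation, while the gene is on X, so it may read a copy; the other probe, on X, was slightly dimmer. Rps27a, made as a fusion with ubiquitin, had 0.71 and 0.08 in WT and 0.24 and -0.56 in KO. The X-linked Rps4x had 0.77 and 0.44 in WT and 0.39 and -0.03 in KO.

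The result also depended on which probe of a gene was read. Of 39 members with more than 1 probe, 38 had at least 2 that could be compared in WT, and for 8 of these some probes had opposite signs on both arrays (Rpl11, Rpl13, Rpl27a, Rpl7l1, Rps13, Rps15a, Rps18 and Rps24). The same held in KO for 7 of 37 (Rpl21, Rpl22, Rpl23a, Rpl37, Rps20, Rps24 and Rps6) and for the KO minus WT difference for 5 of 37 (Rpl11, Rpl13, Rps13, Rps18 and Rps24). For KO over WT it held for 5 of 38 at low density (Rpl13, Rpl27a, Rpl34, Rps18 and Rps24) and for 5 of 37 at high density (Rpl13, Rpl21, Rpl7a, Rps13 and Rps4x). The second and further probes split by brightness. Of 33 with a mean log2 signal of at least 11, 26 were above 0 on both arrays in WT, with a median of 0.29, and 32 had a KO minus WT difference below 0 on both, with a median of -0.62. Of 20 dimmer ones, 16 could be compared in WT, where 5 were above 0 and 9 below with a median of -0.14, and of 15 with a difference 8 were below 0 on both arrays and 5 above, with 4 called lower and 2 higher, against 15.9% and 15.5% of all genes. Of the 33 brighter ones 24 were called lower and 0 higher. At low density the dimmer probes went against the brightest ones, with a median ratio of KO over WT of -0.29, 3 above 0 in both dyes and 13 below. The brightest Rps13 probe (chromosome 7, 116122672 to 116122731, build mm8) gave density ratios of 0.43 and 0.10 in WT, and a dim neighbouring probe (116122744 to 116122807, mean log2 signal 8.50) gave -0.73 and -1.02. Rpl13 had bright probes at 0.51 and 0.42 and at 0.49 and 0.35, and a dim probe (8.32) at -0.78 and -0.82.

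Rpl22 was the clearest such case among bright probes. Its brightest probe (chromosome 4, 151173849 to 151173908, mm8) gave 0.49 and 0.20 in WT and -0.27 and -0.97 in KO. A probe further downstream (151177703 to 151177762, mean log2 signal 12.45) gave 1.53 and 1.55 in WT and 1.11 and 1.14 in KO. The probes thus disagreed on the direction of the KO density effect, while both gave a KO minus WT difference below 0 (-0.97 and -0.42) and a KO over WT ratio at high density below 0 (-1.03 and -0.43). Which transcript or exon each reads was not assigned.

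**Figure D3:**
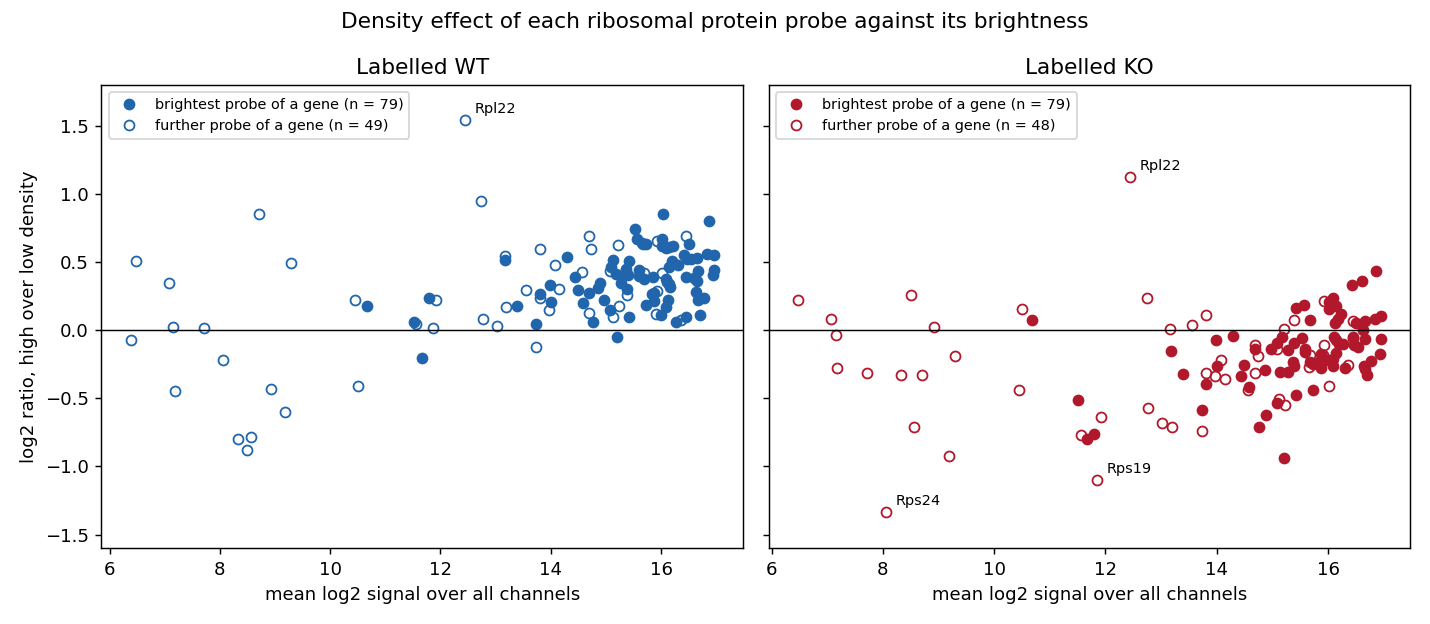
Log2 ratio of high over low density (vertical, mean of 2 arrays) against mean log2 signal over all channels (horizontal) for each ribosomal protein probe compared, in WT (left) and KO (right); filled points are the brightest probe of a gene and open points its further probes. Bright probes cluster above 0 in WT and around or below 0 in KO, dim probes scatter on both sides, and the Rpl22 downstream probe stands alone above 1 in both.

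Members with and without the pyrimidine run in the window at the start were set side by side, with no test. In WT the 24 genes with a run had a median density ratio of 0.29, and 21 were above 0 on both arrays and 2 were called higher. The 35 compared genes with a promoter entry and no run had a median of 0.38, with 31 above 0 and 12 called higher, and over all genes 23.5% were called higher. In KO the medians were -0.25 with a run and -0.17 without, 16 of the 24 and 16 of the 35 were below 0 on both arrays, and 3 and 4 were called lower, where 15.2% of all genes were. The KO minus WT median was -0.58 and the difference was below 0 on both arrays for 24 of the 24 with a run, and with a median of -0.57 it was below 0 for 34 of the 35 without. Past 1.4-fold, all lower, were 17 and 21 of them, against 15.9% of all genes. The absence of a run says only that these letters are not in the window, since annotated starts can be off by a few bases.

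Genes of related function were read beside the members. The 5 ribosomal proteins that the symbol pattern misses moved as the members did in the difference, below 0 on both arrays for 5 of 5, with a median of -0.53. Among them were Rpsa (-0.79), Rpl36al (-0.65), Gnb2l1 (Rack1, -0.53) and Fau (-0.45). Of 19 translation factors and other TOP genes, 18 were on the arrays, and their median was 0.10 in WT, -0.15 in KO and -0.27 in the difference. In that difference 14 were below 0 on both arrays and 3 above, with 4 called lower and 1 higher by the 1.4-fold rule, against 15.9% and 15.5% of all genes. Eif4b, which aids the helicase of cap-dependent initiation, had -0.73 and -0.80. Its ratio of KO over WT was -1.01 and -1.05 at low density and -1.74 and -1.85 at high density. Over the list, the low density ratio of KO over WT was below 0 in both dyes for 13 genes and above for 4. Of all genes 44.3% were below and 46.7% above. The median of the list at low density was -0.14, where that of the members was 0.18. The initiation factor 3 subunits Eif3f and Eif3e, listed as Eif3s5 and Eif3s6, had differences of -0.62 and -0.55, and the elongation factor gene Eef1b2 had -0.66. Eif4a2, a paralogue of the main initiation helicase, went the other way at 0.64 and 1.09.

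The 75 mitochondrial ribosomal protein genes, which build the separate ribosome of mitochondria, had a median density ratio of -0.23 in WT, where 53 were below 0 on both arrays and 16 above. In KO their median was -0.34, and 26 were called lower, where 15.2% of all genes were. Their median difference was -0.14, with 43 below 0 on both arrays and 20 above, 6 called lower and 3 called higher, against 15.9% and 15.5% of all genes. Of 20 ribosome biogenesis genes, 18 were on the arrays, and 14 were called lower with density in WT and 13 in KO, against 17.6% and 15.2% of all genes, with medians of -0.75 and -0.82 and a median difference of -0.11. Fbl, the rRNA methyltransferase of box C/D particles, had -0.44 in WT and -0.67 in KO, and Bysl, which matures the small subunit, had -1.31 and -1.18. Most genes of the biogenesis list were thus lower at high density in both genotypes, whereas most ribosomal protein genes were above 0 in WT. The 507 other genes with a mean log2 signal of at least 14 had medians of 0.07 in WT, 0.01 in KO and 0.03 in the difference.

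**Figure D4:**
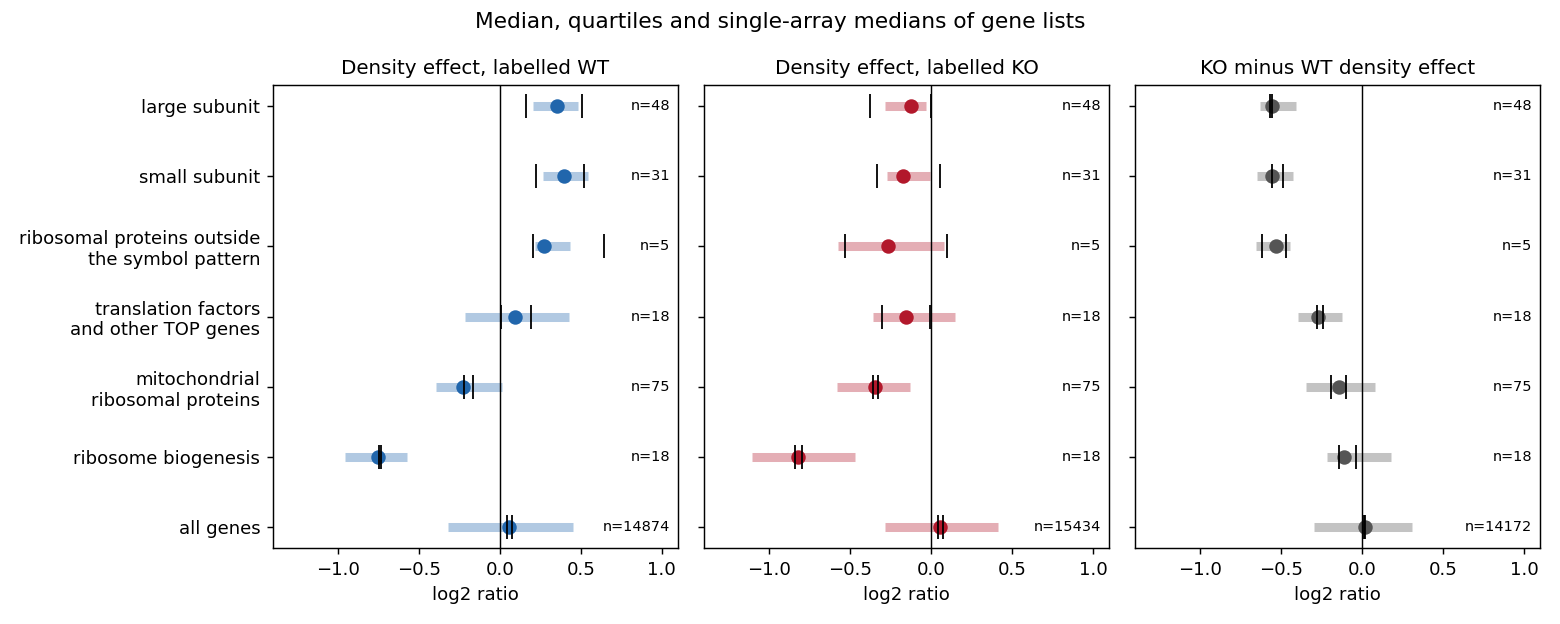
Median log2 ratio (points), quartiles (bars) and medians of the single arrays (black ticks) of each gene list and of all genes, for the density effect in WT (left) and KO (middle) and for KO minus WT (right), with the number of genes compared. The subunits overlap in every panel, have medians above 0 in WT only, and have the lowest medians of the lists in the right panel, at -0.55 and -0.56.

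Of 13 genes named as regulators of TOP messengers or of ribosomal protein genes, 12 were on the arrays. In WT 7 were below 0 on both arrays and 3 above, with a median of -0.33, where 39.9% and 48.9% of all genes were. In KO 8 were below and 2 above, with a median of -0.18, against 37.7% and 46.5% of all genes. In the difference 4 were below and 5 above, with a median of 0.04, against 40.7% and 43.1% of all genes. Myc, a driver of ribosomal protein and biogenesis genes, was lower at high density, with ratios of -1.05 and -1.16 in WT and -1.69 and -1.63 in KO. Eif4ebp1, a repressor of cap-dependent translation, had -1.12 and -0.90 in WT and -0.79 and -0.41 in KO. Larp1 had -0.51 in WT and -0.67 in KO, Rheb, the activator of mTORC1, had -0.72 and -0.28, and Mtor, listed as Frap1, had -0.05 and 0.07. Other genes of the list went the other way. Tsc2 was above 0 on every array, with means of 0.58 in WT and 0.51 in KO, and Akt1s1 had 0.002 and 0.68. These are messenger levels and carry no reading of mTORC1 activity or of translation.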

How the data were processed

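RNA of MEFs from low and high density cultures was hybridised on 4 two-colour arrays. Per the file headers, the authors extracted the scans with Agilent Feature Extraction (10.5.1.1 in the submitters' processing notes), and the deposited files hold raw mean and background intensity for each dye, processed intensity and a log10 ratio. The deposited series matrix holds that log10 ratio in rounded form, swapped arrays with their sign turned, and was used only as a check.

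Intensities were processed with R 4.3.3 and limma 3.58.1: normexp background correction with an offset of 50, loess within each array (controls and outlier features at weight 0), and a mean over features of a probe. An offset shrinks the ratio of a dim probe. Each ratio was set as high over low density, and the mean of the swap was taken. KO and WT were compared within a dye after Aquantile scaling and averaged over both dyes. For a density effect a probe had to exceed background clearly (the scanner's flag) on both arrays at one or both densities, and for a genotype ratio in both dyes in one or both genotypes. Each gene was read by its brightest probe. With 1 replicate per genotype no test was made, and their number limits the precision. The SD of an array about its pair was 0.10 over all genes and 0.20 over members for WT, and 0.14 and 0.24 for KO. The counting rule was checked on simulated data.

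The genes named are, per contrast, the 5 highest and 5 lowest members of like sign on both arrays, any member past 2-fold, and a set with known extra roles or paralogues, apart from a few genes that are not reported here; Rpl27 and Rpl29, the probes of Rpl13 and Rps13, and single genes of the other lists were named after their values were seen. The members, lists and rules were chosen with earlier results of these data known. Alternatives were no offset, processed signals, median centring and loess fitted without translation probes, the members included. Others were no filter, the mean of a gene's probes, no paralogues, a 2-fold threshold, no scaling between arrays and leaving out each array. Probe positions and gene names are those of the array annotation (mm8), and promoters those of RefSeq (GRCm38.p6). Of the epithelial markers, 1 of 6 (Krt14) was well above background in all 8 channels.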

Additional observations from a re-analysis of the deposited data

Results flagged for a closer look

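The results here stood out because all arrays of 1 group lay on one side of 0 and all arrays of the other group on the opposite side. None of these differences was tested since each genotype has 1 replicate. Each value is the log2 density effect in KO less that in WT, which is the same number as the genotype ratio at high density minus that at low density.

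The ratio of KO over WT of the ribosomal protein genes as a whole was above 0 at low density and below 0 at high density in both dyes by its median, with a difference of -0.557. The same held for the large subunit (-0.555) and the small subunit (-0.557). The medians of the large subunit also had opposite signs for the density effect in WT and KO (-0.555), though the KO median on array 1 was close to 0.

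The genes whose density effect was above 0 on both WT arrays and below 0 on both KO arrays, and whose genotype ratio also changed sign between densities in both dyes, included Rpl31 (-0.995), Rpl36a (-0.883), Rpl18 (-0.774), Rpl15 (-0.574), Rpl24 (-0.469) and Rpl22l1 (-0.357). Only the density effects had opposite signs for Rpl22 (-0.966), Rps6 (-0.726), Rps19 (-0.609), Rpl7l1 (-0.574), Rpl6 (-0.566) and Rps3 (-0.430). Only the genotype ratio changed sign between densities for Rpl17 (-0.798), Rps27 (-0.650), Rpl23 (-0.639), Rpl14 (-0.595), Rplp0 (-0.575), Rpl10 (-0.558), Rps27a (-0.557), Rpl23a (-0.514), Rpl39 (-0.480), Rpl38 (-0.448) and Rps4x (-0.427). At Rpl22 a second bright probe gave density effects above 0 in both genotypes, so the opposite signs belong to 1 probe. A dim probe of Rps6 (mean log2 signal 6.47) gave a KO density effect of 0.25 and 0.20, against -0.23 and -0.44 on the brightest. The second probe of Rpl7l1 (9.19) gave -0.62 and -0.58 in WT, against 0.11 and 0.01. The second probe of Rps4x (7.15) gave a ratio of KO over WT at high density of 1.29 and 0.64, against -0.06 and -0.20, and was above 0 at low density too. For Rpl23a the second probe (14.74) gave a KO density effect of -0.09 and -0.29, against 0.09 and 0.23. Only the brightest probe was read for the signs given here.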

How the results depend on the processing

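Of 53 medians over the members recomputed under an alternative, 52 kept their sign, the exception being the density effect in KO without KO array 2 (0.01). The KO minus WT difference stayed below 0 under every alternative run, but its size did not. Its median of -0.56 became -0.39 from the processed signals and -0.93 with median centring, and ranged from -0.71 to -0.35 when an array was left out, with the lowest value without KO array 1. Its 48 members past 1.4-fold became 25 and 78 under the same settings, 0 at 2-fold and 21 to 65 without an array, with 21 without KO array 2 and 28 without WT array 1. With loess fitted without the translation probes, members included, 68 members were past 1.4-fold, all lower, and the median of the difference was -0.68.

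With median centring the density effect had a median of 0.10 in WT and of -0.84 in KO. The ratio of KO over WT then had a median of 0.36 at low and of -0.57 at high density. This setting leaves the dye in the single arrays, where the WT medians were 1.39 and -1.22 and the KO medians 0.58 and -2.25. The WT count of 23 became 6 from processed signals, 0 with median centring, 41 with loess fitted without the translation probes, 0 at 2-fold, 9 without WT array 1 and 45 without WT array 2. The KO count of 8 became 3 with median centring and 0 at 2-fold, and was 24 without KO array 1, all lower, and 6 without KO array 2, of which 3 were lower and 3 higher. The low density count of 6 became 14 with no offset, 29 with median centring, 14 with loess fitted without the translation probes, 13 with no scaling between arrays and 0 at 2-fold, and ranged from 6 to 13 without an array, with 13 (11 higher and 2 lower) without array 2 of either genotype. It was 5 higher and 1 lower, and from processed signals 2 and 2. The high density count of 25 became 52 with median centring and 1 at 2-fold, and ranged from 18 to 33. The KO density effect of Rpl22 turned to 0.25 when its probes were averaged, which is the disagreement of its probes given above. Of 1107 values of single genes under an alternative, 1 reversed and 732 stayed within 1 SD. For the other changes the cause was not tested. The counts under an alternative have no share of all genes beside them, since those shares are given for the main setting only.

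No paired analysis was possible because each genotype has 1 replicate, so no model was fitted with or without a block. Each density ratio already sets both cultures of an array against each other. The limits are 1 replicate per genotype, genotype shared with slide and scan day, Lats2 probes that do not check the label, and bright spots whose level depends on the loess curve.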
